A study of Mus musculus with 2 samples.

Results

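The tricarboxylic acid (TCA) cycle enzymes Cs, Idh3a, Idh3b, Idh3g, Ogdh, Sucla2, Suclg1, Fh1 and Mdh2 were examined in iBAT, the interscapular brown adipose tissue, a depot whose adipocytes burn fuel to make heat. They were taken by gene symbol from the list of 27179 genes, by a rule that uses no measured value, and all 9 were found in both libraries. The 9 symbols themselves were chosen with earlier results of these data known. The samples were untreated iBAT of C57BL/6N mice aged 20 days, described as male, with 1 library of each genotype, wild-type and Ucp1 knockout (Δ/Δ; Ucp1-KO), and each library a pool of 3 animals. No other allele was named for either group, and how the Ucp1 allele was made is not given in the sources used here. With 1 library per genotype there was no replicate, no test and no standard deviation, so every difference below is one between 2 libraries, set against counting error alone.

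The TCA cycle runs in the mitochondrial matrix, where it oxidises the acetyl groups delivered by fatty acid and glucose breakdown and hands the electrons to the respiratory chain. Brown adipocytes are rich in mitochondria, and uncoupling protein 1 (UCP1), the inner membrane protein that lets protons leak back into the matrix, releases as heat the energy that this oxidation provides. Most steps of the cycle are reversible, and those of citrate synthase, NAD+-dependent isocitrate dehydrogenase and 2-oxoglutarate dehydrogenase are known as the ones that commit carbon to it.

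The wild-type library held 52950913 counts and the Ucp1-KO library 53216727. Ucp1, the targeted gene, stood at 366473 wild-type and 37853 Ucp1-KO counts. Its normalised level in Ucp1-KO was 12.7% of wild-type (12.5% to 12.9%) and per kilobase it still lay above 99.4% of the genes ranked, and since the deleted part of the gene is not given in the sources used here, its remaining counts are no full check of the label. Scaling used size factors by the median of ratios, and the log2 ratio is that of Ucp1-KO over wild-type on these normalised counts. Genes were examined if the mean of both normalised counts reached 10, which left 15212 with a median log2 ratio of -0.0016. Intervals are 95% counting intervals. The list of 13 brown adipocyte markers, all examined, had a median log2 ratio of 0.49 (0.19 with total counts). Of these, 11 were above 0 and 2 below. Elovl3 had 2.52 and Dio2 2.28, whereas Ucp1 had -2.98 and Cox8b -0.30. The intervals of Ebf2 (0.18) and Zic1 (0.28) include 0. With total counts Ebf2 (-0.13), Zic1 (-0.03), Fabp4 (-0.15) and Pparg (-0.06) were also below 0. Several other things differed between the libraries. All 26 skeletal muscle markers were lower in Ucp1-KO, with a median of -2.61 (Pvalb -3.92, Casq1 -3.65, Mylpf -3.63), and their summed share of all counts was 0.776% (wild-type) and 0.0983% (Ucp1-KO). All 7 endothelial markers were lower as well (median -0.87; Emcn -1.39, Egfl7 -0.92, Flt1 -0.91), and 4 of 6 macrophage markers were higher (median 0.53; Itgam 2.04, Cd68 1.09, Lyz2 0.81). The macrophage marker Mrc1 was at 0.25 but at -0.06 with total counts. Csf1r (-0.0067) and Adgre1 (-0.21) were not higher, and their intervals include 0. The Y-linked Ddx3y, Uty, Kdm5d and Eif2s3y were at 0 in the wild-type library and at 3446, 798, 570 and 491 counts in Ucp1-KO, and Xist had 32380 and 16478, so the pools differed in sex-linked transcripts, against the description of all animals as male, and sex and genotype are confounded and cannot be told apart. The part of muscle, endothelial, macrophage and sex differences in the values below was not tested. In tissue RNA, fewer cells of a type and less RNA per cell cannot be told apart either.

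The 9 genes lie on 9 different chromosomes, and Idh3g is the X-linked one. Their promoters are shown for the members at both ends of the range of differences, Cs and Suclg1, and for Ogdh and Mdh2, which carry a cyclic AMP response element. The sequences are the 250 bases before the first RefSeq start (build GRCm38.p6), written 5′ to 3′ on the gene's strand, with every match to a searched motif in capitals. Cs is chr10:128337477-128337726 and Ogdh chr11:6291347-6291596. Mdh2 is chr5:135778399-135778648 and Suclg1 chr6:73248255-73248504, and all 4 are on the plus strand.
Cs: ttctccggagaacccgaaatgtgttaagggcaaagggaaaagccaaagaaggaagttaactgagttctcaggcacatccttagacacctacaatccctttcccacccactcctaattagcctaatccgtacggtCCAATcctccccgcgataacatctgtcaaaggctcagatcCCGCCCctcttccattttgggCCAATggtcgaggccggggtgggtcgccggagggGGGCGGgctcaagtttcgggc
Ogdh: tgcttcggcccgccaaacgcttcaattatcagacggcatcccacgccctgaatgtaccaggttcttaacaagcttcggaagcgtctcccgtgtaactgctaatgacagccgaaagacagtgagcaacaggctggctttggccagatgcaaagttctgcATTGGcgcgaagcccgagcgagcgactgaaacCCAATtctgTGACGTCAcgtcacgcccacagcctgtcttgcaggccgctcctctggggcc
Mdh2: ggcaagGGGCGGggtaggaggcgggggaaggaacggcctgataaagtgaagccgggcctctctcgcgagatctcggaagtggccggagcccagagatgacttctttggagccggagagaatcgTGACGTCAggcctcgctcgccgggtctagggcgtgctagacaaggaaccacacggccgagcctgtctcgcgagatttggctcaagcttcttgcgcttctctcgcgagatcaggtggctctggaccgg
Suclg1: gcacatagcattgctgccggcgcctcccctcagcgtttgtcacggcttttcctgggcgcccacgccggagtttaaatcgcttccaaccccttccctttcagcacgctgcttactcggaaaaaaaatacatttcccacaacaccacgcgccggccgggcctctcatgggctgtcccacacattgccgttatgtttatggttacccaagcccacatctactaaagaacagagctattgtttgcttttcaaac

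Windows from 250 bases before to 50 after a start were searched on both strands for 7 motifs in 27025 genes, a gene with several starts being searched in each of its windows. Windows were found for 8 members, Idh3a being the exception. The cyclic AMP response element TGACGTCA was found for Ogdh and Mdh2 and for 2.03% of all genes. The SP1 GC box GGGCGG was found for 5 members (Cs, Ogdh, Sucla2, Fh1, Mdh2) and 38.2% of all genes, and the CCAAT box CCAAT for 4 (Cs, Idh3b, Ogdh, Fh1) and 41.1%. The NRF1 core GCGCATGC was found for Ogdh alone, at its 2 last-listed starts, and for 3.05% of all genes. The oestrogen-related receptor element TCAAGGTCA (0.466% of all genes), the ETS site CCGGAAGT (4.31%) and the TATA box TATAAA (15.7%) had no match in the windows of the members. The Suclg1 and Idh3g windows held none of the 7 motifs. In the 4 sequences printed no match overlapped another, and a match is a description of letters, not of a bound site.

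On the normalised scale 8 of the 9 members were higher and 1, Suclg1, was lower in the Ucp1-KO library, each beyond its counting interval. Of all genes examined, 49.9% lay above 0. Passing the interval is common at this depth: it lay above 0 for 31.5% and below 0 for 30.5% of all genes examined, and for 57.6% and 35.6% of the 616 genes whose mean normalised count reached 10000, the abundance of the members. The median log2 ratio of the 9 was 0.32 and the range was -0.22 to 0.52, so the differences were small. None was 2-fold apart, the size rule used for single genes, which 7.42% of all genes examined passed as higher and 9.55% as lower (1128 and 1453 genes, or 732 and 2320 with total counts). Of the 616 abundant genes, fewer passed it, 3.41% as higher and 4.71% as lower.

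**Figure D1:**
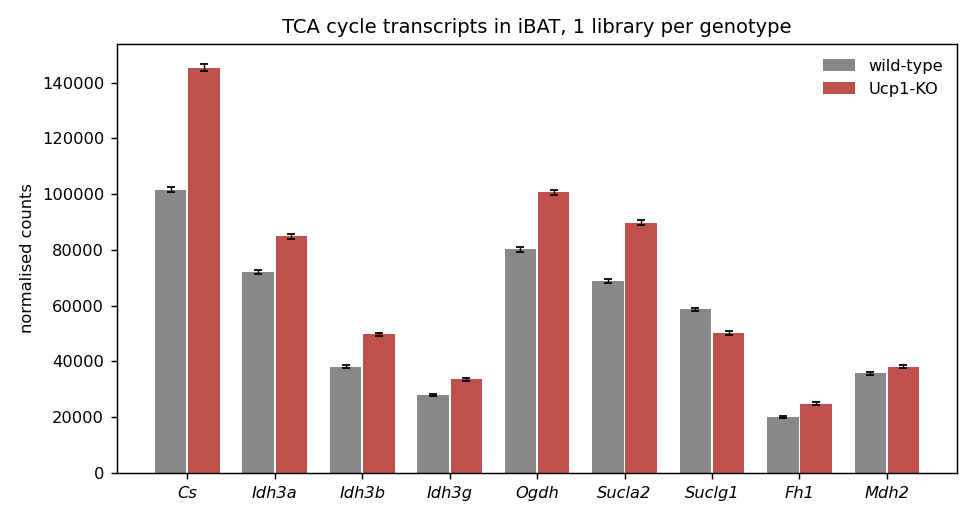
Normalised counts of the 9 TCA cycle members in the wild-type (grey) and Ucp1-KO (red) library, with 1 library per genotype. Error bars are 95% counting intervals and do not cover differences between animals. Heights of different genes also reflect transcript length. Suclg1 was the one member with a lower bar in Ucp1-KO, whereas with total-count scaling 4 members were lower.

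The direction of these differences depended on what the counts were scaled to. With total counts in place of size factors, 5 members were above 0 and 4 below (Suclg1, Mdh2, Idh3a, Idh3g), with a median of 0.0086, because that scaling moved the all-gene median by -0.31. The 15 transcripts of mitochondrial DNA examined here (13 subunits and 2 ribosomal RNAs) took 22.4% of all counts in wild-type but 36.7% in Ucp1-KO. The 9 members summed to 1.054% of all counts in wild-type (interval 1.050% to 1.058%) and 1.045% in Ucp1-KO (1.041% to 1.049%). Of the counts outside those 15 transcripts they were 1.36% (1.35% to 1.36%) and 1.65% (1.64% to 1.66%). Thus the share of the members was nearly level when mitochondrial RNA was included and higher in Ucp1-KO when it was left out. Relative to the median of all genes, the median of the members was 0.32 above with size factors and 0.32 above with total counts. This is so by construction, since a change of scaling moves all genes together. The genes of similar abundance also leaned upward: among the same 616 abundant genes, 61.2% had a log2 ratio above 0, and their median was 0.12. Centred on these abundant genes, the members had a median of 0.20, with Mdh2 (-0.03) and Suclg1 (-0.34) below 0.

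**Figure D2:**
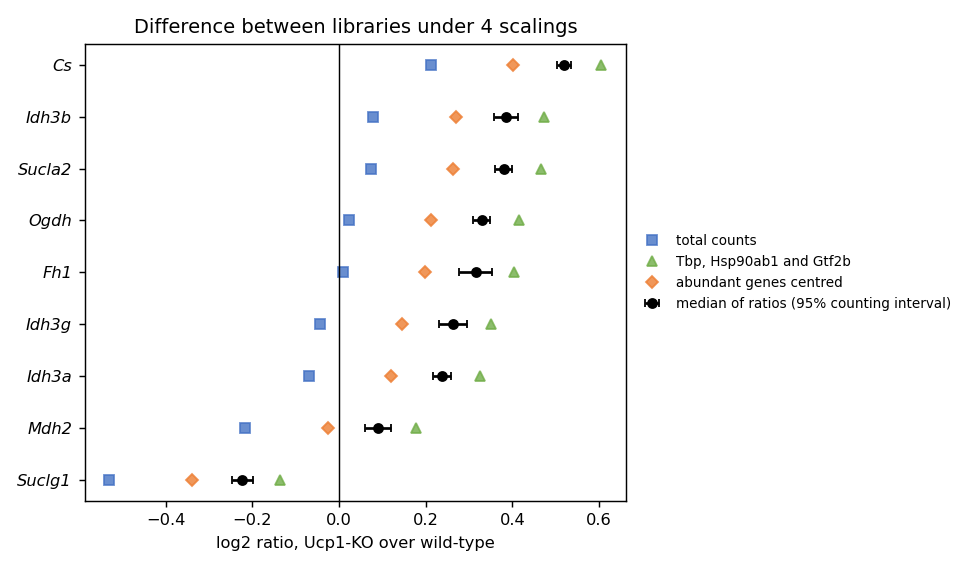
Log2 ratio of Ucp1-KO over wild-type for each member under 4 scalings, with 95% counting intervals on the median-of-ratios values (black). Each scaling moved all 9 members together: Cs stayed above 0 (0.21 to 0.61) and Suclg1 below (-0.53 to -0.14) under all 4, while Idh3a, Idh3g and Mdh2 crossed 0 with total counts, and Mdh2 also with the abundant genes centred.

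Citrate synthase, which joins acetyl-CoA to oxaloacetate and opens the cycle, had the highest log2 ratio of the members. Cs (Entrez gene 12974; chromosome 10, 128172837 to 128198363, plus strand, GRCm39; 11 exons in the canonical transcript) had 112659 wild-type and 131080 Ucp1-KO counts. These were 101546 and 145425 normalised counts, a level in Ucp1-KO of 143% of wild-type (142% to 145%). The log2 ratio was 0.52 (0.50 to 0.53), and with total counts 0.21, and 82.3% of all genes examined had a lower one. Cs was the single member at or beyond a log2 ratio of 0.5 in size, a mark that 18.3% of all genes passed upward and 20.8% downward, and 15.3% and 11.5% of the abundant genes. With total counts the single member past that mark was instead Suclg1, as lower (-0.53), and with the abundant genes centred no member passed it (Cs 0.40). Reads of Csl, its intronless relative, were few (6 and 3 counts).

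The 3 subunits of NAD+-dependent isocitrate dehydrogenase, the enzyme that turns isocitrate into 2-oxoglutarate, were all modestly higher. Idh3a encodes the catalytic alpha subunit (Entrez gene 67834; chromosome 9, 54493575 to 54514730, plus strand) and had 79866 and 76483 counts. Its normalised counts were 71988 and 84853, a log2 ratio of 0.24 (0.22 to 0.26), but -0.07 with total counts. Idh3b encodes the beta subunit (Entrez gene 170718; chromosome 2, 130121227 to 130126467, minus strand), with 42196 and 44768 counts. It went from 38034 to 49667 normalised counts, with a log2 ratio at 0.39 (0.36 to 0.41) and at 0.08 with total counts. Idh3g encodes the gamma subunit (Entrez gene 15929; chromosome X, 72820644 to 72830719, minus strand) and had 30996 and 30206 counts. Its normalised counts were 27939 and 33512, a log2 ratio of 0.26 (0.23 to 0.29), but -0.04 with total counts. Over the 491 examined X-linked genes the median was -0.0083, and the median of the other 8 members was 0.32.

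The beta subunit moved slightly apart from its partners, judged against counting error alone. The measure was the ratio of a pair of transcripts within each library, which no scaling changes. How often other gene pairs differ as much was not examined. The ratio of Idh3b to Idh3a counts was 0.528 (wild-type) and 0.585 (Ucp1-KO), a log2 change of 0.15 (0.11 to 0.18), and that of Idh3b to Idh3g was 1.36 and 1.48, a log2 change of 0.12 (0.08 to 0.16). The ratio of Idh3g to Idh3a was 0.388 and 0.395, a log2 change of 0.03 whose interval of -0.01 to 0.06 includes 0. Per kilobase of canonical transcript, Idh3b stood at 0.846 of Idh3a in wild-type and 0.937 in Ucp1-KO, and Idh3g at 0.637 and 0.648.

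Ogdh encodes the E1 component of 2-oxoglutarate dehydrogenase, which makes succinyl-CoA. It had 88914 and 90744 counts (Entrez gene 18293; chromosome 11, 6241551 to 6309233, plus strand, 23 exons), or 80143 and 100675 normalised counts. The log2 ratio was 0.33 (0.31 to 0.35), and 0.02 with total counts. The other components of the complex are Dlst, the E2 succinyltransferase, and Dld, the E3 subunit shared with pyruvate dehydrogenase. Dld kept its proportion to Ogdh, 0.498 of it (wild-type) and 0.501 (Ucp1-KO), a log2 change of 0.0085 (-0.02 to 0.04). Dlst went from 0.733 to 0.637 of Ogdh, a log2 change of -0.20 (-0.23 to -0.17).

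The subunits of succinyl-CoA synthetase, which makes succinate and a nucleoside triphosphate, lay on either side of 0. Suclg1 encodes the alpha subunit common to both forms of the enzyme (Entrez gene 56451; chromosome 6, 73225365 to 73253894, plus strand). It had 65055 wild-type and 45284 Ucp1-KO counts, or 58638 and 50240 normalised counts. Its level in Ucp1-KO was 85.7% of wild-type (84.2% to 87.1%), a log2 ratio of -0.22 (-0.25 to -0.20), and -0.53 with total counts. Sucla2 encodes the beta subunit of the ADP-forming enzyme (Entrez gene 20916; chromosome 14, 73762759 to 73834335, plus strand), with 76472 and 80842 counts. Its normalised counts were 68929 and 89689, with a log2 ratio at 0.38 (0.36 to 0.40) and at 0.07 with total counts. The ratio of Sucla2 to Suclg1 counts was therefore 1.18 (wild-type) and 1.79 (Ucp1-KO), a log2 change of 0.60 (0.57 to 0.63). Of the 12 ratios compared within a library, this was the one with the largest change in either direction. In size, however, it lay within counting error of the change of Idh3a to Idh2 (-0.59, interval -0.64 to -0.55). Suclg2, the beta subunit of the GTP-forming enzyme and not a member, was much scarcer, with 3315 and 4153 counts and a log2 ratio of 0.62 (0.53 to 0.72). Sucla2 was 26.5 times Suclg2 per kilobase in wild-type and 22.4 times in Ucp1-KO, a log2 change of -0.25 (-0.34 to -0.15). Both beta subunits thus differed upward, also with total counts (0.07 and 0.32), while the shared alpha subunit was lower under every scaling run.

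Fh1 and Mdh2 encode fumarase and malate dehydrogenase, which close the cycle by way of malate and oxaloacetate. Fh1 (Entrez gene 14194; chromosome 1, 175425290 to 175453205, minus strand) had 22137 and 22381 counts, or 19953 and 24830 normalised. Its log2 ratio was 0.32 (0.28 to 0.35), and 0.0086 with total counts. Mdh2 (Entrez gene 17448; chromosome 5, 135807292 to 135820882, plus strand) had 39686 and 34332 counts, or 35771 and 38089 normalised. Its log2 ratio of 0.09 (0.06 to 0.12) was the smallest in size, and it was -0.22 with total counts. Against Cs, the transcript with the highest ratio, Mdh2 went from 0.352 to 0.262, a log2 change of -0.43 (-0.46 to -0.39). The same ratio for Fh1 was 0.196 and 0.171 (log2 change -0.20) and for Ogdh 0.789 and 0.692 (-0.19). Mdh1, the cytosolic malate dehydrogenase of the malate-aspartate shuttle, had a log2 ratio of 0.38, so that Mdh2 went from 0.960 to 0.787 of Mdh1, a log2 change of -0.29 (-0.33 to -0.25).

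**Figure D3:**
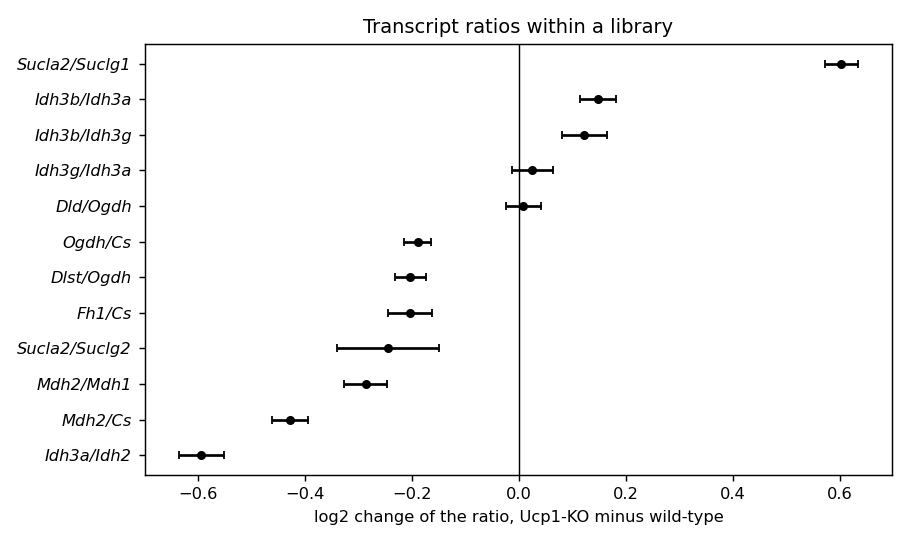
Log2 change, Ucp1-KO minus wild-type, of the ratio of 2 transcripts within a library for 12 pairs, with 95% counting intervals. Size factors and totals cancel in these ratios. Sucla2/Suclg1 lies furthest above 0 (0.60) and Idh3a/Idh2 furthest below (-0.59), and the intervals of Idh3g/Idh3a and Dld/Ogdh include 0.

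Ordered by log2 ratio, the members ran Suclg1, Mdh2, Idh3a, Idh3g, Fh1, Ogdh, Sucla2, Idh3b and Cs. Suclg1 and Mdh2 at the lower end and Cs at the upper end were separated from their neighbours by gaps of 0.31, 0.15 and 0.13 with intervals that did not overlap. The intervals of Idh3a and Idh3g, of Idh3g and Fh1, of Fh1 and Ogdh, and of Sucla2 and Idh3b overlapped. Those of Ogdh and Sucla2, with a gap of 0.05, did not.

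Levels were compared between genes per kilobase of canonical transcript. In wild-type, Suclg1 led with 38603 normalised counts per kilobase, followed by Cs with 34399. In Ucp1-KO, Cs led with 49263, followed by Suclg1 with 33074 and Idh3a with 32813, the last pair within counting error of each other. Fh1 was lowest in both (3772 and 4694), and Ogdh next (11786 and 14805). All members but Fh1 lay above 98.7% of the genes ranked in either library, and Fh1 lay above 95.9% in wild-type and 96.6% in Ucp1-KO. With the union of all exons as the length, Cs led and Fh1 stayed last in both, but Ogdh moved from rank 8 to ranks 5 and 3 and Suclg1 took ranks 2 and 6, so the order in between rests on the gene model.

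Some exons of the members overlap genes on the opposite strand, and the strand setting of the counting is not given in the sources used here. The largest overlap was that of Idh3a with Acsbg1, 1875 bases, and Acsbg1 had 20 and 32 counts. Idh3g shares 1437 bases with Srpk3, which had 259 and 87 counts, and 301 with Ssr4, which had 3443 and 2959. Idh3b shares 12 bases with Nop56 (1679 and 3087 counts), Cs 56 with Coq10a (8426 and 6300) and Fh1 188 with Kmo (12 and 13). Suclg1 and Mdh2 overlapped no annotated gene. Each of these named neighbours had fewer counts than the member beside it in both libraries. Opposite-strand lncRNA genes share further exon bases, namely Gm56959 with Cs (1098), Gm72270 with Ogdh (500) and Gm74723 with Idh3b (487), and no counts were matched to them by symbol.

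The other enzymes of the cycle were read from a list of 10 genes, of which 8 were examined and 7 were above 0, with a median of 0.18 (-0.13 with total counts). Succinate dehydrogenase, which also serves as respiratory complex II, was slightly higher, each subunit beyond its counting interval: Sdha had a log2 ratio of 0.22, Sdhb of 0.18 and Sdhc of 0.16, but all were below 0 with total counts (-0.09, -0.13 and -0.15). Sdhd was listed at 0 in both libraries, and since cells need it, that 0 is not read as absence. Dld had a log2 ratio of 0.34 (0.03 with total counts), Dlst of 0.13 (-0.18) and Mrps36, a small subunit of the 2-oxoglutarate dehydrogenase complex, of 0.18 (-0.13). Ogdhl was scarce, with 32 and 19 counts and an interval of -1.78 to 0.79. No examined gene of this list was 2-fold apart, like the members.

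Genes of pyruvate entry, meaning the carrier, the pyruvate dehydrogenase complex and the kinases and phosphatases that regulate it, were mixed. The 13 examined genes had a median log2 ratio of -0.19 (-0.50 with total counts), with 8 below 0 against 50.1% of all genes. Their summed normalised counts were nearly level (log2 ratio 0.01). In that sum a higher Pdk4 (85792 and 144191 normalised counts) stood against a lower Pdhb (89413 and 52536), so it does not describe the list as a whole. Pdhb, the E1 beta subunit of pyruvate dehydrogenase, had 99198 and 47354 counts and a log2 ratio of -0.77 (-0.79 to -0.74). Its partner Pdha1 had -0.22, Pdhx -0.14 and the E2 subunit Dlat 0.08. The mitochondrial pyruvate carrier subunits Mpc1 and Mpc2 had -0.59 and -0.53. Among the kinases that switch the complex off, Pdk4 had 0.75 (95181 and 129968 counts), Pdk2 0.05, Pdk1 -0.58 and Pdk3 -1.59 (227 and 61 counts). The phosphatase Pdp2 had 0.87, Pdp1 0.26 and the regulatory subunit Pdpr -0.19, the last with an interval that includes 0. With total counts Dlat (-0.23), Pdk2 (-0.26) and Pdp1 (-0.04) were below 0. Pdk4 and Pdp2 stayed above 0 (0.44 and 0.56).

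**Figure D4:**
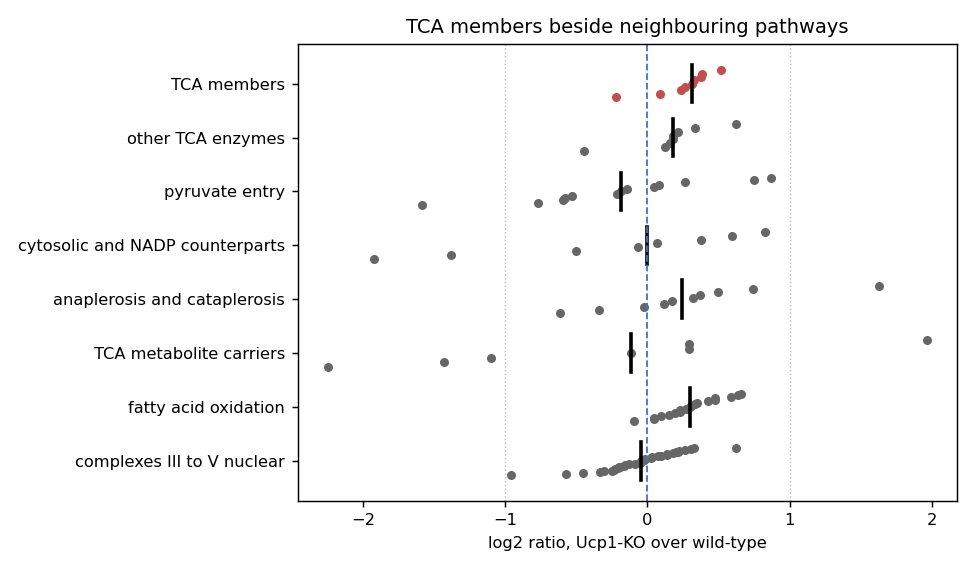
Log2 ratio of Ucp1-KO over wild-type for the members (red) and the examined genes of 7 neighbouring lists (grey), with a black bar at each list's median, a dashed line at the median of all genes examined and dotted lines at a 2-fold difference. The members lie between -0.22 and 0.52, and no member, other TCA enzyme, fatty acid oxidation gene or subunit of complexes III to V lies past 2-fold. With total counts every value moves down by about 0.31, which among these takes Atp5mc1 past 2-fold lower. Pdhb of the pyruvate entry list also passes it then (-1.07).

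Cytosolic and NADP-dependent counterparts were spread widely, with 4 of 8 above and 4 below 0 and a median of -0.0004. Acly, which splits citrate in the cytosol for lipid synthesis, had a log2 ratio of -1.93 (182682 and 39052 counts), and Me1, the cytosolic malic enzyme that supplies NADPH, of -1.38. Idh2, the NADP-dependent isocitrate dehydrogenase of the matrix, had 0.83 (0.52 with total counts), and Idh3a went from 4.12 to 2.73 times its counts, a log2 change of -0.59 (-0.64 to -0.55). Of 10 genes that feed or drain the cycle, 7 were above 0 with a median of 0.25 (-0.06 with total counts). Pck2, the mitochondrial phosphoenolpyruvate carboxykinase, had 1.63, and the aspartate aminotransferases Got1 and Got2, cytosolic and mitochondrial, had 0.74 and -0.62. The 7 carriers of cycle metabolites had a median of -0.11, with 3 above 0 and 4 below. Above 0 were Slc25a18 (1.97, from 20 and 65 counts), Slc25a11 (0.29) and Slc25a13 (0.29, from 22 and 22 counts). The interval of Slc25a13, -1.05 to 1.65, includes 0. With total counts Slc25a11 (-0.0131) and Slc25a13 (-0.0071) fell just below 0. Slc25a1, the citrate carrier, had -2.25, Slc25a10, the dicarboxylate carrier, had -1.43, and Slc25a12, an aspartate-glutamate carrier, had -1.10.

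Set beside other oxidative pathways, the median of the members lay nearer to that of fatty acid oxidation than to that of the nuclear subunits of complexes III to V. Such a difference cannot be tested with 1 library per genotype. The 19 fatty acid oxidation genes had a median of 0.30 (-0.0088 with total counts), 18 of them above 0, with Acadl at 0.66, Etfdh at 0.64 and Etfb at 0.59. The 35 examined nuclear subunits of complexes III to V had a median of -0.05 (-0.35 with total counts), 14 above 0 and 21 below, with Atp5mc1 at -0.96, Cox7a2l at 0.62 and Atp5me at -0.57. The 13 subunits encoded by mitochondrial DNA were all above 0, with a median of 0.96, and ND3 (3.46), ATP6 (2.27) and ND6 (1.30) differed most. The ribosomal RNAs mt-Rnr1 (3.35) and mt-Rnr2 (2.60) also were higher. The libraries were poly-A enriched, and the part of library preparation in these values was not tested. The 9 transcription regulators of mitochondrial genes had a median of 0.14 (-0.17 with total counts). Among them the coactivators Ppargc1a and Ppargc1b had 1.89 and 0.65 and Esrrg, an oestrogen-related receptor, 1.00. Nrf1 (0.14), Esrra (0.10) and Tfam (0.01) were close to 0 and below it with total counts.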

How the data were processed

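RNA of iBAT was sequenced by poly-A enriched, directional libraries. The deposited values are whole-number counts per gene that the authors made with featureCounts, not normalised. Per the labels, Trim Galore and HISAT2 were used with build mm39 (GRCm39). Versions, annotation and the settings for strand and multi-mapping reads are not given in the sources used here, so overlapping genes and gene copies are uncertain. The 1319 genes without a symbol (0.156% and 0.121% of counts) were kept.

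Counts were scaled by median-of-ratios factors (1.11 for wild-type, 0.901 for Ucp1-KO; DESeq2 1.42.0, R 4.3.3), and log2 ratios carry a pseudocount of 0.5. No model was fitted. Among counts of 1 to 10, 70.7% and 73.4% were even, as when both mates of a pair are counted, so exact conditional binomial intervals (Python 3.11.15, SciPy 1.17.1) took read pairs as counts divided by 2. Ratios of transcripts carry normal intervals on the log scale. All intervals reflect counting error alone, and PCR reads lacking molecular identifiers are not separate molecules. The code was checked on simulated data. Gene positions and lengths are from GENCODE mouse release 39 (GRCm39, joined by symbol, 97.0% of genes examined matched), and promoters from RefSeq (GRCm38.p6).

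The members, lists, size rules and motifs were chosen with earlier results of these data known. All 9 members were named. One gene of the lists was left out of them and is not reported here. All genes of the lists of other TCA enzymes and pyruvate entry were named, and up to 3 genes with the largest log2 ratio at a mean of at least 100 of the other lists. Nrf1, Esrra, Tfam, Mdh1, Mrc1, Csf1r, Adgre1, Slc25a11, Slc25a13, Slc25a18 and the genes overlapping members were named after their values were seen. So were Cox8b, Ebf2, Zic1, Fabp4 and Pparg. Tbp, Hsp90ab1 and Gtf2b, reference genes of the study, served as an alternative scaling, as did total counts and edgeR 4.0.16 TMM factors.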

Additional observations from a re-analysis of the deposited data

How the results depend on the processing

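No paired analysis was possible because there is a single library per genotype, and for that reason no library was left out. The scalings on counts outside mitochondrial transcripts and on abundant genes, and the median without Idh3g, were chosen after seeing the data.

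The median log2 ratio of the members was 0.0086 with total counts, 0.40 with the reference genes Tbp, Hsp90ab1 and Gtf2b and 0.20 with the abundant genes centred, and these scalings moved the all-gene median by -0.31, 0.09 and -0.12. It stayed within the counting interval of the median member with TMM factors, factors computed without mitochondrial, sex-linked and muscle genes, counts outside mitochondrial transcripts, a pseudocount of 5, summed counts and without Idh3g. Of 63 values of single members under alternatives that could move them, 36 stayed within their intervals, 23 moved and 4 changed sign: with total counts Idh3a (-0.070), Idh3g (-0.0445) and Mdh2 (-0.22), and with abundant genes centred Mdh2 (-0.0255). With total counts the medians of the other TCA enzymes (-0.13), of the genes that feed or drain the cycle (-0.061) and of fatty acid oxidation (-0.0088) changed sign too. So did that of the transcription regulators (0.14, and -0.17 with total counts), though the interval of its median gene, Nrf1, includes 0. No member was 2-fold apart under any scaling. At a log2 ratio of 0.5 in size, 1 member (Cs) was higher, but with total counts none was higher and Suclg1 was lower (-0.53), and with the abundant genes centred none passed (Cs 0.40).

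Of all genes, 1128 were at least 2-fold higher and 1453 lower. Total counts gave 732 and 2320, a size rule of 0.5 gave 2781 and 3161, no filter gave 2187 and 2844, and a minimum mean of 50 gave 617 and 811, the last 3 by construction. Depth did not limit the members, whose counting intervals were at most 1.87% of a count to either side. It limited scarcer genes, among them Ogdhl, Csl, Pdpr and Slc25a13.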
